A study of Mus musculus with 6 samples.

Results

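The Hedgehog signaling genes examined here were Ihh, Dhh, Ptch1, Smo, Gli1, Gli2, Gli3, Hhip and Gas1, 9 of the 54232 genes in the count table. They were chosen by name, as the rows whose Ensembl identifiers map to these symbols. Of the 9, 7 had enough counts to be tested between groups, among 15376 tested genes. RNA-seq had been performed on primary muscle cells of the mouse oviduct on day 2 of pregnancy, with 3 libraries of WT mice and 3 of mice that lack Pbrm1 conditionally (Pbrm1 cKO). Pbrm1 encodes a subunit of the PBAF form of the SWI/SNF chromatin remodeling complex. Females were 8 to 12 weeks old, and both groups were handled alike. The cells were plated for 4 h and kept for another 2 h in a second medium. According to the study's methods, the cKO carries Pbrm1 fl/fl and PR-IRES-cre/+, so Cre acts in cells that have made the progesterone receptor. This includes cells outside the muscle. The labels call the controls WT, while a legend of the study's supplement names Pbrm1 fl/fl mice for the same kind of cells. Whether a library came from a single animal or a pool is not given in the sources used here. The supplement calls the replicates biological. P-values measure the spread between these libraries.

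Hedgehog ligands are secreted proteins that bind the receptor Ptch1, aided by the surface proteins Gas1, Boc and Cdon, and the binding frees Smo, which Ptch1 otherwise holds inactive. Active Smo gathers in the primary cilium and changes the processing of the Gli transcription factors, of which Gli3 acts largely as a repressor and Gli1 only as an activator. Ptch1, Hhip and Gli1 are themselves standard targets of the pathway. In the female reproductive tract Ihh is known as a progesterone-induced epithelial signal to the mesenchyme of the uterus.

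The libraries held 15390818 to 18947947 counts, and a count of 3 in 1 library, taken as the floor, was worth 0.158 to 0.195 CPM (counts relative to the library total, after trimmed-mean normalization). As a check of the labels, Pbrm1 itself was at 170, 183 and 172 CPM in WT replicates 1, 2 and 3 and at 43.5, 50.7 and 42.7 CPM in cKO replicates 1, 2 and 3 (log2 fold change -1.94 ± 0.064 SE, adjusted p = 9.13e-11 by edgeR). Smooth muscle markers were well expressed, but the cells were not muscle alone. Pdgfra, the highest of the fibroblast markers, was at 74.5 CPM per kb of exon in WT, and the lowest, Clec3b, at 0.0774. The smooth muscle markers Tagln and Acta2 were above Pdgfra, at 804 and 722. Myh11, smooth muscle myosin heavy chain, was below it at 11.6, and Myocd was the lowest of its list at 0.715. Of the markers, 5 of 8 for smooth muscle, 5 of 8 for epithelium, 5 of 8 for fibroblasts and 6 of 8 for leukocytes rose in cKO, and 1 each for smooth muscle and fibroblasts fell. Of the 8 each for fibroblasts and leukocytes, 7 and 6 had enough counts to be tested. By the same test, 21.9% of all tested genes were higher in cKO and 21.8% lower. The summed fibroblast markers ranged from 1245 to 1259 CPM over the WT libraries and from 2139 to 2296 over the cKO libraries. The corresponding ranges were 3418 to 3482 and 4192 to 4670 CPM for smooth muscle, 920 to 1005 and 1043 to 1164 for epithelium, and 633 to 684 and 891 to 966 for leukocytes. Sums for endothelium, mesothelium and granulosa cells were lower in every cKO library than in any WT library. The endothelial sum ranged over 330 to 347 CPM in WT and 263 to 272 in cKO, with 1 of 6 markers higher and 1 lower. The mesothelial sum ranged over 155 to 162 and 123 to 128 CPM, with 2 of 4 markers lower. The 6 granulosa and cumulus markers summed to 35.6 to 40.1 CPM in WT and 14.5 to 23.6 in cKO, with 2 of the 3 tested lower. Cyp19a1 had at most 1 count in any library. Cd3e, of T cells, was near 0 as well. Schwann cell markers, whose sum of 11.8 to 14.4 CPM came mostly from Erbb3, gave no call among the 2 of 6 that could be tested. In these bulk libraries fewer cells of a type and less RNA per cell cannot be told apart, and the part of cell composition in the results below was not tested.

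Among the 7 tested members, 4 differed between the groups by edgeR's quasi-likelihood test at an adjusted p-value under 0.05. Gas1 and Smo were higher in cKO, and Gli3 and Ptch1 were lower. Of all tested genes, 43.7% passed the same threshold, 21.9% as higher in cKO and 21.8% as lower, so the members' share was near that of the whole table. WT and cKO libraries were separate, with no overlap in CPM, for 5 of the 7 and for 53.5% of all tested genes. The median log2 fold change (cKO minus WT) was 0.07 over the 7 members and 0.0016 over all tested genes. Absolute log2 changes larger than that of Gas1 were found in 11.5% of tested genes, and larger than that of Gli3 in 23.7%.

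**Figure D1:**
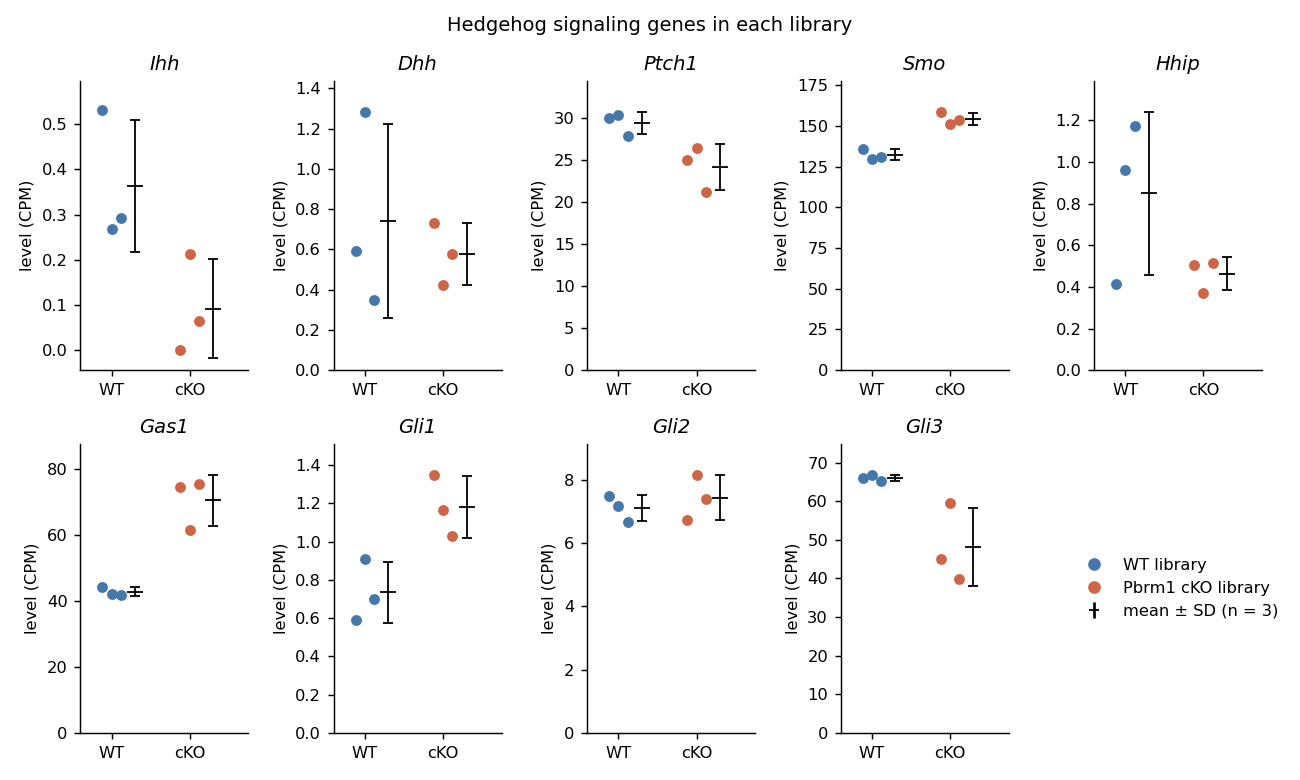
Level in CPM (y axis, linear, separate for each gene) of the 9 Hedgehog signaling genes in the 3 WT and the 3 Pbrm1 cKO libraries, with the mean and SD of each group as a black bar. Gas1 and Smo lie higher in every cKO library than in any WT library, Ptch1 and Gli3 lower, and Ihh, Dhh, Hhip and Gli1 stay below 1.4 CPM in all libraries.

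The 250 bases before the RefSeq start site of the 4 members that passed the threshold are shown because they carry the promoter sequences of the genes whose RNA differed (RefSeq, GRCm38.p6, 5′ to 3′ on the strand of the gene). Capitals mark CCACCC or its reverse complement GGGTGG, the core of the sequence that Gli proteins bind.
Gas1 (chr13:60177536-60177785, minus strand): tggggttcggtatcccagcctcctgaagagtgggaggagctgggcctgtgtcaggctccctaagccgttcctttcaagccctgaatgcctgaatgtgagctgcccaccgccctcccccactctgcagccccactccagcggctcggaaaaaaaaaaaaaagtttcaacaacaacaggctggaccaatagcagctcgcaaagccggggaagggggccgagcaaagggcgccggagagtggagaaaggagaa
Smo (chr6:29735247-29735496, plus strand): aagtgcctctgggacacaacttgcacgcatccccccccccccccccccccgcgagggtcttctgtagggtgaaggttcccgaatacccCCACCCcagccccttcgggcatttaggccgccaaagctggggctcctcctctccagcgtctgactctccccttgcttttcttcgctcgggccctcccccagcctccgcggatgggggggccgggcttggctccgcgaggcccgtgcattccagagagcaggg
Gli3 (chr13:15463473-15463722, plus strand): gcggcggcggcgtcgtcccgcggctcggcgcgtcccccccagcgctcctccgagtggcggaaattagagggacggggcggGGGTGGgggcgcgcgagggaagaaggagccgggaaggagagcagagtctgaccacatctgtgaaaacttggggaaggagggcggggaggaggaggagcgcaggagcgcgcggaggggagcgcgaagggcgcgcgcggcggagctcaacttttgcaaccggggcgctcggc
Ptch1 (chr13:63565736-63565985, minus strand): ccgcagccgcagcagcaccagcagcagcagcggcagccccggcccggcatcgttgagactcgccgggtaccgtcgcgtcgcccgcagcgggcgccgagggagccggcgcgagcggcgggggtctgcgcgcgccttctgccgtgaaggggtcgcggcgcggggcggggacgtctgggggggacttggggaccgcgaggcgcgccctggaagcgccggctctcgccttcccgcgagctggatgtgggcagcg
The Ptch1 and Gli3 bases lie inside introns of transcripts that start further upstream in the GENCODE annotation. The Gli3 bases also overlap an exon of the noncoding gene Gm6556 on the other strand, and the Gas1 bases an exon of the noncoding gene Gm48488 on the other strand. Windows of 300 bases, from 250 before to 50 after the start site, were at hand for 8 of the 9 members, without Gli1. The full Gli consensus GACCACCCA was found on neither strand in any of the 8, and in 0.253% of all 32851 windows. The core was found in 6 of the 8, in Ihh and Gli2 at 2 places each and in Dhh, Smo, Hhip and Gli3 at 1 place, and in 31.5% of all windows. It begins 162 bases before the Smo start site and 170 before that of Gli3. The windows of Gas1 and Ptch1, which changed in opposite directions, held no core. All 8 windows were richer in G and C than the median window of 52.7%, from 61.7% in Dhh to 76.3% in Ptch1. The 31.5% of all windows with the core was not matched for this, so 6 of 8 cannot be read as an excess. The Ptch1 window held 47 CpG dinucleotides and the Gli3 window 39, against a median of 7, while those of Smo and Gas1 held 17 each.

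The ligands were close to the limit of detection. Ihh (ENSMUSG00000006538.12; chromosome 1, 74945315 to 74951672, minus strand in GRCm38) had 9, 5 and 5 counts in WT replicates 1, 2 and 3 and 0, 4 and 1 counts in cKO replicates 1, 2 and 3. In CPM these were 0.532, 0.267 and 0.293 in WT and 0, 0.212 and 0.0643 in cKO. The groups did not overlap, but Ihh fell under the filter on low counts and was not tested in the main comparison. The ratio of cKO to WT counts was 0.269, with an exact 95% interval of 0.0784 to 0.744 that covers counting error only, and the exact two-sided permutation test over libraries gave p = 0.1, the smallest that 3 against 3 allows. With no filter on low counts, edgeR gave Ihh an adjusted p of 0.0582. That setting also lowered the adjusted p of Gas1, which has ample counts, to 1.75e-26. The value for Ihh is thus no support for a difference.

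Dhh (ENSMUSG00000023000.5; chromosome 15, 98891152 to 98898540, minus strand), the ligand of Schwann and gonadal support cells, was at 0.591, 1.28 and 0.351 CPM in WT and 0.731, 0.424 and 0.579 CPM in cKO. The cKO libraries lay within the range of the WT libraries. The log2 fold change of -0.39 had an SE of 0.45 (edgeR adjusted p = 0.52, 95% interval -1.36 to 0.58), and without WT replicate 2 it was 0.29. Dhh overlaps Rhebl1 on the same strand, and reads in the shared stretch were counted for neither gene. Shh, the third mammalian ligand, had no count in any library, which allows at most 0.195 CPM in the shallowest.

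Ptch1 and Smo, the receptor and the transducer it holds in check, differed in opposite directions and by small amounts. Ptch1 (ENSMUSG00000021466.12; chromosome 13, 63508328 to 63573598, minus strand) was at 30.0, 30.3 and 27.9 CPM in WT and at 25.0, 26.4 and 21.2 CPM in cKO. Every cKO library lay below every WT library, with means of 29.4 ± 1.30 and 24.2 ± 2.71 CPM (SD, n = 3), the latter 82.2% of WT. The log2 fold change of -0.28 ± 0.082 SE passed the test (adjusted p = 0.0142 by edgeR). This call was lost without WT replicate 2 (adjusted p = 0.0550) and without cKO replicate 3 (adjusted p = 0.0583).

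Smo (ENSMUSG00000001761.7; chromosome 6, 29735503 to 29761365, plus strand) stood at 136, 130 and 131 CPM in WT and at 158, 151 and 153 CPM in cKO. The groups were separate with little spread inside either, at 132 ± 3.29 and 154 ± 3.83 CPM (SD, n = 3), so that cKO stood at 117%. This log2 fold change of 0.22 ± 0.044 SE passed the test (adjusted p = 0.00117 by edgeR), also in all 15 alternatives.

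Gas1 and Hhip bind ligand at the cell surface, Gas1 to present it to Ptch1 and Hhip to sequester it. Gas1 (ENSMUSG00000052957.8; chromosome 13, 60174405 to 60177365, minus strand) was at 44.4, 42.2 and 42.0 CPM in WT and at 74.7, 61.6 and 75.5 CPM in cKO. All 3 cKO libraries were above all WT libraries, with replicate 2 the lowest of them. The mean went from 42.9 ± 1.32 to 70.6 ± 7.78 CPM, or to 165% (SD, n = 3; log2 fold change 0.72 ± 0.074 SE, adjusted p = 4.51e-06 by edgeR). This was the largest change among the tested members. The summed fibroblast markers given above were higher in cKO, as was Gas1, though Dpt of that list was lower and Pi16 gave no call. The sums for smooth muscle, epithelium and leukocytes were higher as well. The part of these cells in the change of Gas1 was not tested.

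Hhip (ENSMUSG00000064325.4; chromosome 8, 79965851 to 80058006, minus strand) was at 0.414, 0.962 and 1.17 CPM in WT and at 0.506, 0.371 and 0.515 CPM in cKO. WT replicate 1 lay among the cKO libraries. Hhip was under the filter, and its 24 counts in cKO against 45 in WT gave a ratio of 0.544 (exact 95% interval 0.317 to 0.913, counting error only; exact permutation p = 0.3). With no filter on low counts, edgeR gave Hhip a log2 fold change of -0.89 and an adjusted p of 0.107. An adjusted p of 0.0245 came only without WT replicate 1, the WT library among the cKO values, when Hhip reached the filter through the remaining WT libraries alone, so it is no support for a difference.

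Of the 3 Gli genes, Gli3 fell, Gli2 gave no call, and Gli1 was higher in every cKO library without passing the threshold. Gli3 (ENSMUSG00000021318.15; chromosome 13, 15463235 to 15730026, plus strand) stood at 66.1, 66.8 and 65.2 CPM in WT and at 45.1, 59.6 and 40.0 CPM in cKO. The WT libraries were nearly alike while the cKO libraries spread widely, with replicate 2 close to WT. The mean went from 66.0 ± 0.838 to 48.2 ± 10.2 CPM, or to 73.0% (SD, n = 3; log2 fold change -0.45 ± 0.10 SE, adjusted p = 0.00333 by edgeR). Leaving out that replicate gave -0.63.

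Gli2 (ENSMUSG00000048402.14; chromosome 1, 118834132 to 119053619, minus strand), the main activator of the family, was at 7.50, 7.16 and 6.67 CPM in WT and 6.75, 8.17 and 7.40 CPM in cKO. The groups overlapped, and the 95% interval of the log2 fold change went from -0.19 to 0.32 around 0.07 (edgeR adjusted p = 0.684). Gli1 (ENSMUSG00000025407.7; chromosome 10, 127329882 to 127341974, minus strand) was at 0.591, 0.909 and 0.703 CPM in WT, from 10, 17 and 12 counts, and at 1.35, 1.17 and 1.03 CPM in cKO, from 24, 22 and 16 counts. The groups did not overlap, with a log2 fold change of 0.68 (SE 0.29, 95% interval 0.06 to 1.30, edgeR adjusted p = 0.0733). With genes of at least 10 counts in every library only, fewer genes were tested and the edgeR adjusted p was 0.0492. Gli1 has exactly 10 counts in WT replicate 1. The other 14 alternatives gave no call, with an adjusted p of 0.244 under DESeq2 and 0.138 by edgeR with no filter. Arhgap9 overlaps the end of Gli1 on the other strand and was higher in cKO (log2 fold change 0.65), and the counting was strand-specific.

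Within a library, levels per exon length can be compared between the Gli genes. Gli3 held 85.1%, 85.1% and 85.9% of the summed level per length of the 3 genes in WT and 79.0%, 81.4% and 76.5% in cKO. The Gli2 share was 13.5%, 12.7% and 12.3% in WT and 16.5%, 15.6% and 19.8% in cKO. The Gli1 share was 1.46%, 2.22% and 1.78% in WT and 4.54%, 3.06% and 3.78% in cKO. For each of the 3 genes the groups were separate, with an exact two-sided permutation p = 0.1, the smallest this design can give. The shares of a library add up to the whole, so these are not independent results. The Gli2 share was higher in cKO although the level of Gli2 itself gave no call. Gli3, most of the sum, went from 6.89 CPM per kb in WT to 5.03 in cKO, which by itself raises the other shares. The mean Gli1 share was 1.82% ± 0.382 in WT and 3.79% ± 0.738 in cKO (SD, n = 3).

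**Figure D2:**
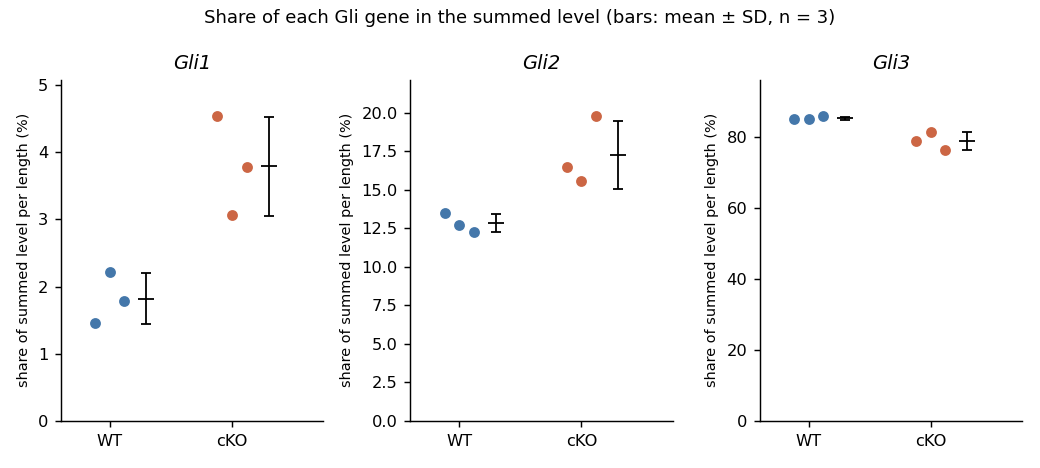
Share of Gli1, Gli2 and Gli3 (one panel each, y axis in percent) in their summed level per exon length, for each WT and each Pbrm1 cKO library, with mean and SD. Gli3 makes up 76.5% to 85.9% of the sum in every library, and the Gli1 and Gli2 shares are higher in all cKO libraries than in any WT library.

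Across the 9 members, levels per length spanned a wide range with nearly the same order in both groups. In WT the order was Smo at 23.5 CPM per kb, Gas1 at 14.5, Gli3 at 6.89, Ptch1 at 2.07, Gli2 at 1.04, Dhh at 0.169, Gli1 at 0.147, Ihh at 0.119 and Hhip at 0.0935. The ranges over WT libraries were separate down to Gli2, while Dhh, Gli1 and Ihh each overlapped the next in the order. Reads shared with Rhebl1 were not counted for Dhh, so its level per length may be too low. In cKO Smo was at 27.4 CPM per kb, Gas1 at 23.8, Gli3 at 5.03, Ptch1 at 1.70, Gli2 at 1.08, Gli1 at 0.237, Dhh at 0.131, Hhip at 0.0511 and Ihh at 0.0302, with an overlap between neighbours for the last pair only. The ranges of Smo and Gas1 thus came closer in cKO, where the lowest Smo library was at 26.9 and the highest Gas1 library at 25.5 CPM per kb.

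**Figure D3:**
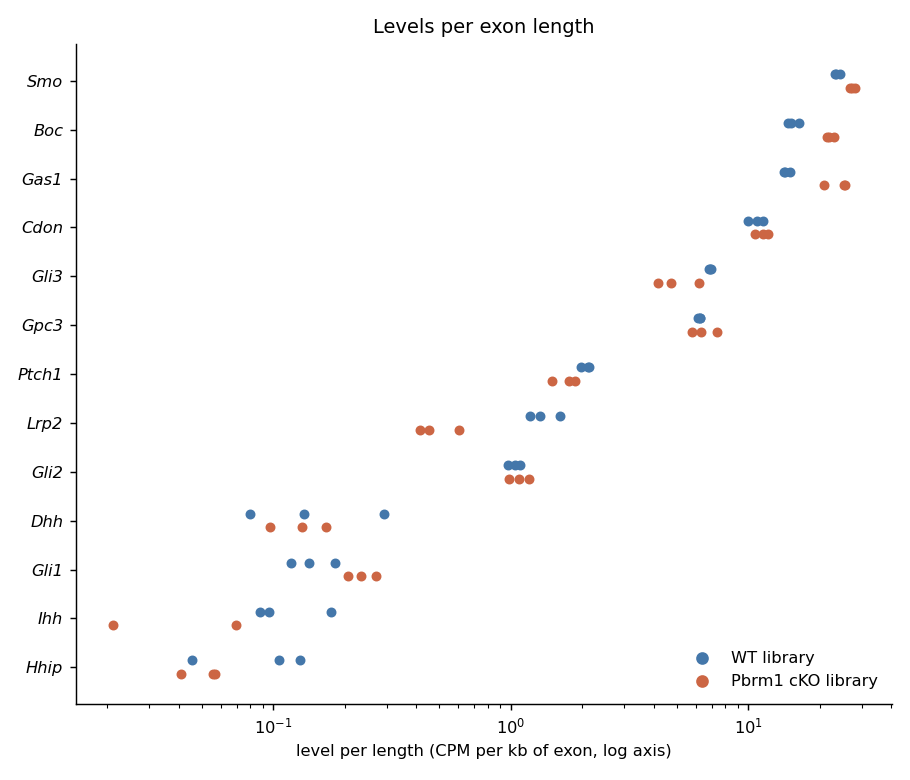
Level per exon length (x axis, CPM per kb, log scale) of the 9 members and of the receptors and co-receptors Boc, Cdon, Gpc3 and Lrp2, with 1 point per library and genes ordered by their WT mean. Smo, Boc, Gas1 and Cdon lie near or above 10 CPM per kb, the ligands, Gli1 and Hhip below 0.3, and the cKO library in which Ihh had no count has no point on the log axis.

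The other genes of the pathway moved in both directions. Of 36 such genes, 33 were tested and 12 of these (36.4%, against 43.7% of all genes) passed the threshold, 4 higher and 8 lower in cKO, with a median log2 fold change of -0.03 over the 33. Shh, Disp2 and Scube2 were not tested. Among the receptors and co-receptors, Boc, which like Gas1 presents ligand to Ptch1, was at 72.6, 66.9 and 65.4 CPM in WT and at 102, 95.2 and 97.2 CPM in cKO. It rose by a log2 fold change of 0.52 (SE 0.054, edgeR adjusted p = 4.4e-06). Cdon, the paralog of Boc, was at 83.0 ± 5.96 CPM in WT and 88.1 ± 5.19 in cKO (SD, n = 3), with a log2 fold change of 0.09 (95% interval -0.04 to 0.22, edgeR adjusted p = 0.267). So of the 3 co-receptors Gas1, Boc and Cdon, the first 2 rose and for the third no difference was detected, while the difference between their changes was not tested.

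Lrp2 (megalin), an endocytic receptor that also takes up Hedgehog ligand, was at 26.9, 20.0 and 22.2 CPM in WT and at 6.92, 10.1 and 7.53 CPM in cKO. The groups were far apart, at 35.4% of the WT mean (log2 fold change -1.49 ± 0.14 SE, adjusted p = 1.8e-06 by edgeR).

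Scube1, of a family of secreted proteins that help release lipid-modified ligand, was at 14.8, 13.3 and 14.3 CPM in WT and at 6.92, 8.54 and 6.56 CPM in cKO. It fell to 51.9% of WT (log2 fold change -0.94 ± 0.11 SE, adjusted p = 1.76e-05 by edgeR). Hhat and Disp1, which add palmitate to the ligand and export it, gave log2 fold changes of -0.14 and -0.03 and no call.

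Of 9 regulators of Smoothened, 2 rose and 2 fell. Evc, a ciliary protein that relays the Smo signal, was at 18.4, 15.8 and 17.5 CPM in WT and at 24.9, 25.1 and 24.4 CPM in cKO (log2 fold change 0.53 ± 0.077 SE, adjusted p = 9.7e-05 by edgeR). Its partner Evc2 had a log2 fold change of 0.11 without a call. Efcab7, which anchors the Evc complex at the base of the cilium, was at 8.51, 7.97 and 9.02 CPM in WT and at 5.57, 6.58 and 5.40 CPM in cKO (log2 fold change -0.53 ± 0.12 SE, adjusted p = 0.00274 by edgeR). Evc and Efcab7, of 1 complex, thus moved in opposite directions.

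Of 15 regulators of Gli proteins, 1 rose and 3 fell. Tulp3, which carries receptors into the cilium, was at 34.2, 38.1 and 34.8 CPM in WT and at 28.6, 23.1 and 20.1 CPM in cKO. It fell to 67.0% of WT (log2 fold change -0.57 ± 0.10 SE, adjusted p = 0.000466 by edgeR). Sufu and Kif7, which hold Gli proteins in the cytoplasm and order them in the cilium, had log2 fold changes of -0.01 and -0.03 and no call. The other 6 called genes of the pathway list changed by absolute log2 fold changes of 0.16 to 0.47, and Btrc, of the ligase that starts the trimming of Gli3, just missed the threshold (log2 fold change 0.19, edgeR adjusted p = 0.0504).

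Genes of the transport machinery of the primary cilium, without which Smo cannot signal, gave calls in both directions. All 16 were tested, and 4 rose and 1 fell, or 5 of 16 against 43.7% of all tested genes, with a median log2 fold change of 0.10. Ift20 was at 26.4, 28.9 and 31.3 CPM in WT and at 42.0, 38.1 and 46.1 CPM in cKO (log2 fold change 0.54 ± 0.081 SE, adjusted p = 0.00012 by edgeR). Dync2li1, a chain of the motor for return transport, was at 12.2, 11.01 and 12.8 CPM in WT and at 8.15, 8.65 and 7.72 CPM in cKO (log2 fold change -0.55 ± 0.10 SE, adjusted p = 0.000709 by edgeR). Ift27 rose by a log2 fold change of 0.32. The calls of Ift57 (log2 fold change 0.23, edgeR adjusted p = 0.0302) and Ift52 (0.18, 0.0445) were lost under DESeq2, with no filter on low counts, and on leaving out any of the WT libraries, among other alternatives.

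**Figure D4:**
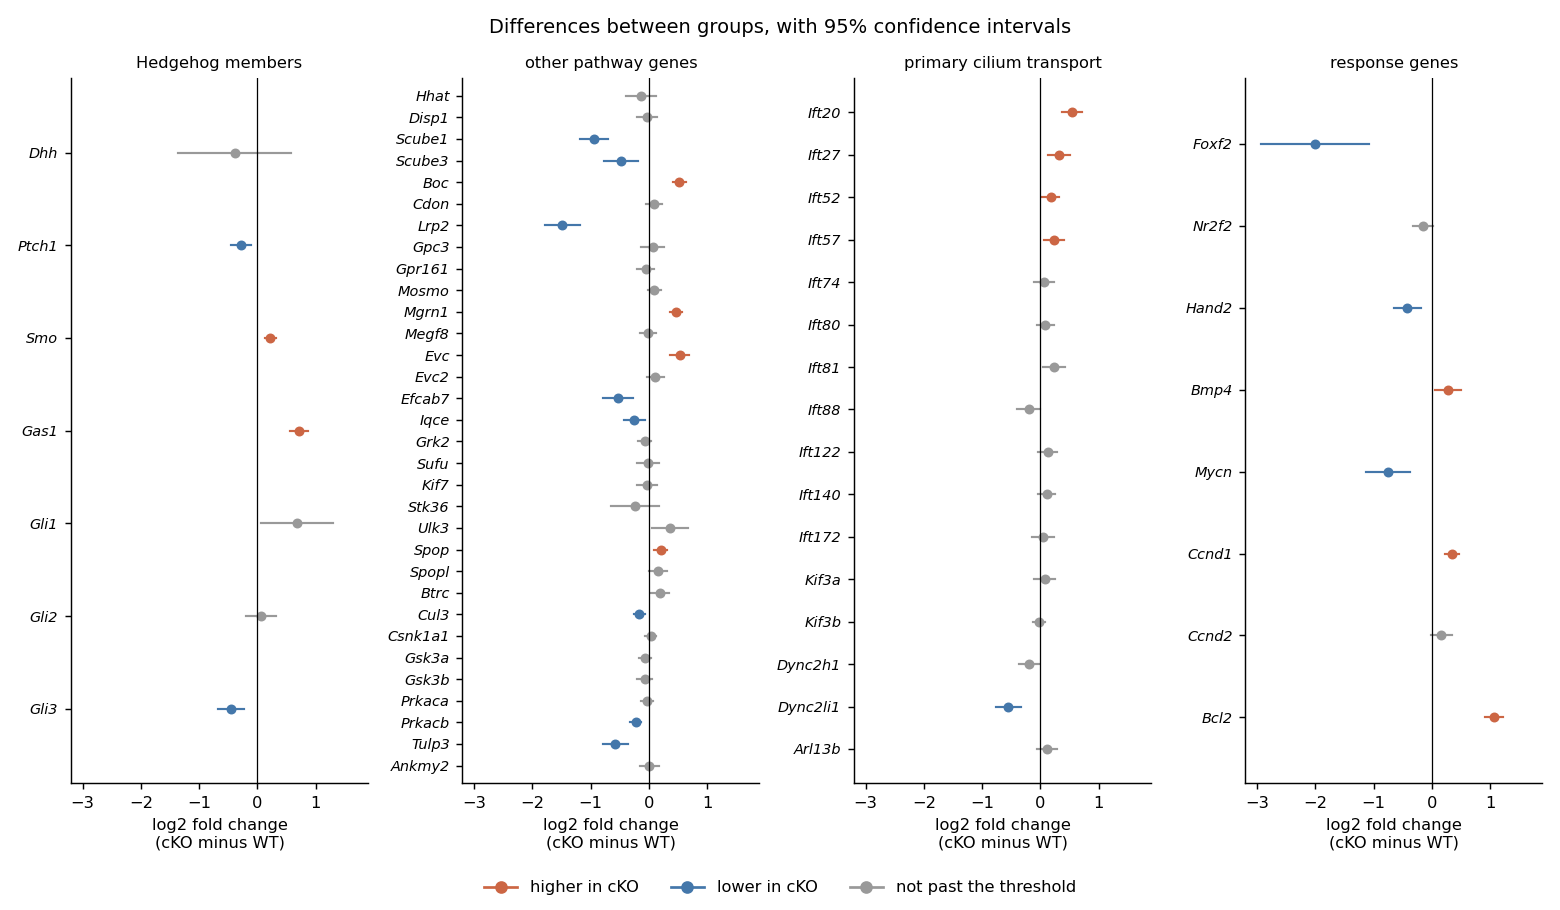
Log2 fold change (x axis, cKO minus WT) with its 95% confidence interval for tested genes of 4 lists, in panels: 7 Hedgehog members, 32 other pathway genes, 16 primary cilium transport genes and 8 response genes outside the pathway. Red marks genes called higher in cKO, blue genes called lower and gray genes past neither, and each panel holds calls in both directions.

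Genes known to respond to Hedgehog in other tissues moved in both directions. Of 10, 8 were tested, and 3 rose and 3 fell, or 6 of 8 against 43.7% of all tested genes, with a median log2 fold change of 0.0023 over the 8. Foxf1 and Foxl1 were under the filter. Foxf2, a forkhead factor of gut and genital mesenchyme, was at 1.65, 0.909 and 1.46 CPM in WT and at 0.169, 0.584 and 0.193 CPM in cKO (log2 fold change -2.01 ± 0.43 SE, adjusted p = 0.00193 by edgeR). Mycn, a driver of proliferation, was at 5.08, 4.17 and 4.39 CPM in WT and at 2.76, 2.12 and 3.28 CPM in cKO (log2 fold change -0.75 ± 0.18 SE, adjusted p = 0.0039 by edgeR). For both genes the groups were separate. Foxf2 reached the minimum of the low-count filter in 3 WT libraries and 1 cKO library, so mainly through the group where it is high. With no filter its edgeR adjusted p was 1.78e-06. The fit with no filter also gave smaller adjusted p-values for genes with ample counts, such as Bcl2 at 6.96e-37. The smaller value for Foxf2 is thus no added support.

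Bcl2, an inhibitor of apoptosis, was at 17.5, 18.8 and 16.2 CPM in WT and at 36.6, 36.6 and 37.3 CPM in cKO, or 210% of WT (log2 fold change 1.07 ± 0.071 SE, adjusted p = 9.67e-08 by edgeR). Ccnd1, a cyclin of the G1 phase, rose by a log2 fold change of 0.35 (SE 0.055, edgeR adjusted p = 0.000173). Nr2f2, which acts below Ihh in uterine stroma, gave no call, with means of 43.0 ± 3.31 and 38.5 ± 4.15 CPM (SD, n = 3; log2 fold change -0.16, edgeR adjusted p = 0.134). Hand2, a progesterone-dependent factor of uterine stroma, was at 11.6, 11.9 and 10.2 CPM in WT and at 7.87, 8.01 and 9.39 CPM in cKO. It fell by 0.42 on the log2 scale (edgeR adjusted p = 0.00658). The study, from browser tracks of the same kind of cells, describes Hand2 RNA as comparable between the genotypes, which differs from this result. Bmp4, a secreted growth factor, rose by a log2 fold change of 0.28 (edgeR adjusted p = 0.0451) with overlapping groups. Its call was lost in 9 of 15 alternatives, DESeq2 and limma-voom included.

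Within 100 kb of a member lay 69 other genes of the table, of which 21 were tested, and 6 were higher and 2 lower in cKO, or 8 of 21 against 43.7% of all tested genes. Those past an absolute log2 fold change of 1 were 3 noncoding genes on chromosome 13, beside Gas1 and Gli3. Gm5084 (60205471 to 60216023, plus strand), 28.1 kb from Gas1, had 2, 2 and 2 counts in WT and 28, 11 and 13 in cKO. It was higher in cKO, as was Gas1 (edgeR adjusted p = 0.00057). It entered the test through the cKO libraries alone, where it is high, and was left out by the filter without cKO replicate 1. With no filter its edgeR adjusted p was 1.75e-07. That setting also lowered the adjusted p of Gas1, which has ample counts, from 4.51e-06 to 1.75e-26, so the smaller value is no added support. The ratio of cKO to WT counts of Gm5084 was 8.85 (exact 95% interval 3.80 to 25.2, counting error only).

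The other two lie beyond the 3′ end of Gli3. 4933412O06Rik (15781664 to 15802630, minus strand), 51.6 kb away, was at 1.42, 1.44 and 0.703 CPM in WT and at 0.506, 0.371 and 0.515 CPM in cKO (log2 fold change -1.36 ± 0.37 SE, adjusted p = 0.00835 by edgeR). A530046M15Rik (15807243 to 15827537, plus strand), 77.2 kb away, stood at 0.709, 1.02 and 0.644 CPM in WT and at 0.281, 0.159 and 0.450 CPM in cKO (log2 fold change -1.44 ± 0.42 SE, adjusted p = 0.0139 by edgeR). Both reached the filter through the WT libraries alone, where they are high. With no filter their edgeR adjusted p-values were 0.00124 and 0.00945. That setting also lowered the adjusted p of Gli3 to 1.4e-11, so these values are no added support. Both were lower in cKO, as was Gli3, and the call of A530046M15Rik was lost under DESeq2 and without WT replicate 2 or cKO replicate 2. In cKO replicate 2, where Gli3 was nearest to WT, both noncoding genes had their lowest level. Gm6556, which overlaps the start of Gli3 on the other strand and was singled out after its values were seen, was under the filter with 15, 12 and 5 counts in WT and 5, 3 and 6 in cKO.

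**Figure D5:**
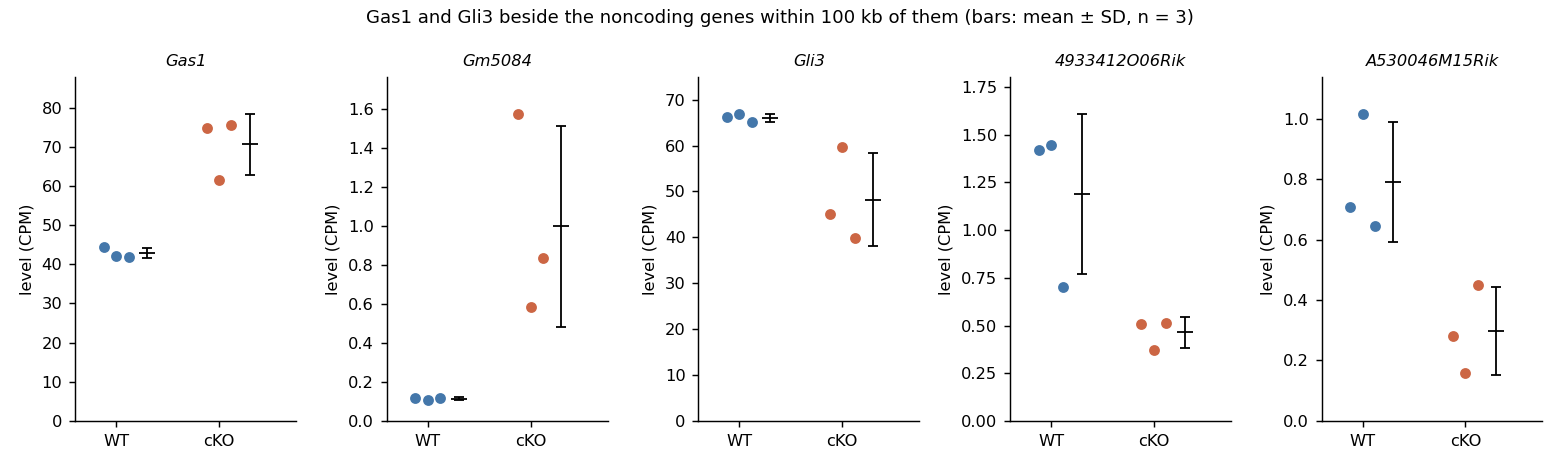
Level in CPM (y axis, linear, separate for each gene) of Gas1 and its neighbour Gm5084 and of Gli3 and its neighbours 4933412O06Rik and A530046M15Rik in each WT and each Pbrm1 cKO library, with mean and SD. Gas1 and Gm5084 are higher in all cKO libraries, and Gli3 and both of its neighbours are lower in all cKO libraries than in any WT library.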

How the data were processed

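RNA-seq read counts of 6 libraries of mouse oviductal muscle cells were used, 3 WT and 3 Pbrm1 cKO, grouped by the labels. The authors deposited 1 table of raw counts per gene. Per the file headers, featureCounts 1.6.4 assigned strand-specific reads to exons, and the submitters' processing notes name cutadapt, HISAT2 and GRCm38.p5. Reads that fall on several genes of 1 strand were not counted. Gene symbols came from an annotation of the same build and matched 54079 of 54232 genes.

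Counts were tested with edgeR 4.0.16 (R 4.3.3): filterByExpr, trimmed mean of M values, quasi-likelihood test, Benjamini-Hochberg adjustment over all tested genes, threshold 0.05. The SE was the absolute log2 fold change divided by the square root of F. The test was checked on simulated counts. Levels per length are CPM per kb of annotated exon. Ratios of low counts carry exact conditional binomial intervals. No 2 libraries of a group were alike within sampling noise (chi-square per gene 1.31 to 1.60 among genes of 10 to 30 counts). Alternatives were DESeq2 1.42.0, limma-voom (limma 3.58.1), other scalings, filters and thresholds, a replicate block, and leaving out each library.

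The members and gene lists were chosen with earlier results of these data known. By the naming rule, all members are given, of each other list up to 6 called genes with the largest change and those under the filter, and neighbours within 100 kb that passed with an absolute log2 fold change of 1 or more. Of the other genes named, Pbrm1 as the check of the labels, Arhgap9 for its overlap with Gli1 and some cell markers were called. The rest gave no call, a near miss or too few counts. They were chosen for their role in the pathway, their position or after their values were seen. Promoter sequences came from RefSeq (GRCm38.p6) and were searched on both strands. Protein sequences were not used here, and the values of 2 listed genes are not reported here, although the counts of the lists include them.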

Additional observations from a re-analysis of the deposited data

How the results depend on the processing

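Under the 15 alternatives, between 3 and 5 members passed the threshold, against 4 in the main comparison. Gas1, Smo, Gli3 and Pbrm1 kept their direction and call in all 15, with log2 fold changes of 0.67 to 0.81, 0.20 to 0.24, -0.63 to -0.33 and -2.02 to -1.90. Ptch1 lost its call without WT replicate 2, without cKO replicate 3 and at an adjusted p under 0.01. The direction turned for Dhh without WT replicate 2 (0.29) and for Gli2 without cKO replicate 2 (-0.0071). When 1 library was left out Dhh ranged from -0.72 to 0.29 and Gli2 from -0.0071 to 0.13, and neither was called in any alternative. The cause was not tested. Called cilium genes numbered 3, against 5, under DESeq2, with no filter and at an adjusted p under 0.01, and between 3 and 6 when 1 library was left out. The difference in the Gli1 share was 1.97 percentage points, 1.13 without division by length, and 1.601 to 2.34 when 1 library was left out. Between 10 and 14 other pathway genes and 5 to 8 response genes were called over the alternatives. Over other scalings the median change of the whole table lay between -0.0103 and 0.0174 (log2).

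The replicate numbers were not treated as pairs, since deviations of same-numbered libraries from their group means correlated at -0.0316, 0.0442 and 0.111, and not every library correlated best with its own number. With the number as a replicate block, 6908 genes were called in place of 6723, and 4 members, 13 other pathway genes, 6 cilium genes and 6 response genes. Ihh, Dhh, Hhip and Gli1 rested on 0 to 24 counts per library, which limits the precision of their values.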
